A study of Mus musculus with 18 samples.

Results

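The genes described here encode the proteins of the cytosolic ribosome. They were taken by name from the deposited gene tables of an RNA sequencing study of 3T3-L1 cells: protein-coding genes named Rpl or Rps with a digit, together with Rplp0, Rplp1, Rplp2 and Rpsa, and without the Rps6k kinases. The rule found 84 genes among 15194 genes listed in at least 1 table, of which 12666 are protein-coding. Of the 84, 75 are ribosomal proteins in the strict sense, 45 of the large and 30 of the small subunit. A further 8 are paralogs or copies by name (Rpl22l1, Rpl36al, Rpl7l1, Rps27l, Rps27rt, Rpl36a-ps1, Rpl7a-ps5 and Rps12-ps3). The remaining one, Rps19bp1, encodes a protein that binds Rps19 and matched the rule only through its name. Rpl7a and Rps27a were not among the rows analysed here.

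3T3-L1 is an established mouse preadipocyte line that is driven to fat cells in culture. Control cells (CTL), MLKL-/- cells and RIPK3-/- cells were sequenced before differentiation (J0, untreated) and after it (J7, differentiated), with 3 libraries for each of the 6 groups and 20.2 to 36.9 M reads per library. Mlkl and Ripk3 encode a pseudokinase and a kinase of necroptosis, a form of regulated cell death. The labels name no clones behind the knockouts. They also do not say that replicate libraries came from different cultures, and each p-value therefore rests on library-to-library spread that may be technical. Groups are named by the sample titles. In the J7 knockout libraries the genotype entry names the other knockout than the title does.

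In J0_RIPK3 the Ripk3 transcript stood at 15.9 ± 1.31 CPM (the read count scaled to the library total) against 18.2 ± 1.40 in J0_CTL (SD, n = 3). In J7_RIPK3 it stood at 10.2, 10.8 and 11.7 CPM against 18.3 ± 0.842 in J7_CTL. Mlkl stood at 8.05 ± 1.45 CPM in J0_MLKL and 15.1 ± 1.24 in J7_MLKL, against 18.9 ± 0.793 and 26.3 ± 1.10 in the CTL groups (SD, n = 3). Ripk3 was lower still in the libraries titled MLKL, at 7.45 CPM at J0 and 9.23 at J7. In the libraries titled RIPK3, Mlkl stood at 15.9 ± 1.62 CPM at J0 and 29.1 ± 2.94 at J7, above the MLKL group of the same day. At J0 the Ripk3 level in the libraries titled RIPK3 (14.7 to 17.3 CPM) overlapped that in J0_CTL (16.8 to 19.6 CPM). Transcript level alone thus neither bears out nor contradicts the RIPK3 title at J0. RIPK3 and MLKL are therefore used as labels, and each direction given for them rests on the titles. The summed level of 8 adipocyte markers was 290.3 to 297.7 CPM in J0_CTL and 21487 to 22564 in J7_CTL, and reached 23705 to 25604 in J7_RIPK3 but only 3533 to 5082 in J7_MLKL. The 6 preadipocyte markers went from 1029 to 1060 CPM in J0_CTL down to 164 to 174 in J7_CTL and 126 to 133 in J7_RIPK3. Adipoq was at 0 in J0_CTL, and Dlk1 in J7_CTL and J7_RIPK3. Of 5 macrophage markers, Adgre1 and Ptprc had no counts in these tables and the others summed to at most 58.0 CPM in any library.

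Ribosomal proteins assemble with ribosomal RNA into the small subunit, which decodes the message, and the large subunit, which joins amino acids. Their mRNAs are among the most abundant of a growing cell, and many start with a run of pyrimidines, the terminal oligopyrimidine or TOP element, through which translation of the whole class is set by the mTOR pathway and by Larp1. Preadipocytes leave the cell cycle and enlarge as they fill with lipid. Many ribosomal protein genes have processed copies elsewhere in the genome, which share reads with them.

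What these genes share at their start sites was read from RefSeq promoter sequences on GRCm38.p6, the assembly known as mm10, for the 62 of 84 genes that matched by symbol. Of 56 matched strict ribosomal protein genes, 21 (37.5%) held a run of at least 8 pyrimidines within 5 bases of the annotated start, against 12.1% of 9730 other coding genes in these data. The ETS-type motif CCGGAAG was found on either strand, between 250 bases before and 50 after the start, in 24 (42.9%) against 18.7%. The YY1-type GCCAT was found in 31 (55.4%) against 43.1%, the SP1-type GGGCGG in 34 (60.7%) against 66.6%, the E-box CACGTG in 6 (10.7%) against 11.5% and TATAAA in 6 (10.7%) against 9.22%. A match describes the letters only. The 30 bases around the annotated start (15 on each side) are shown for genes on which the results turn. Capitals mark the pyrimidine run where there is one of that length, and the last 5 genes have none. All lines read 5′ to 3′ on the gene's strand.
Rps27, chr3:90213634-90213663, minus strand: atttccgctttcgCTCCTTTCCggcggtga
Rps6, chr4:86857353-86857382, minus strand: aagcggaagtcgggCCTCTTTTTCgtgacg
Rps18, chr17:33955651-33955680, minus strand: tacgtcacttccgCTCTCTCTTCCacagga
Rplp2, chr7:141447636-141447665, plus strand: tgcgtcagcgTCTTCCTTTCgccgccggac
Rpl22l1, chr3:28805493-28805522, plus strand: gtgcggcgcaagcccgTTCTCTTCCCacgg
Rplp0, chr5:115559452-115559481, plus strand: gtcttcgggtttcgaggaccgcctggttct
Rpl5, chr5:107900513-107900542, plus strand: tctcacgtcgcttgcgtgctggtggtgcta
Rpl9, chr5:65391417-65391446, minus strand: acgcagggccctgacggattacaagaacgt
Rpl7l1, chr17:46782642-46782671, minus strand: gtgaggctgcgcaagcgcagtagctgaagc
Rpl36al, chr12:69184053-69184082, minus strand: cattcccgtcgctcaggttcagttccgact
Rps27 and Rplp2 both carry a run, and they moved in opposite directions on differentiation. These are single examples. Whether genes with a run changed differently from genes without was not tested.

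The deposited tables list a gene only where the authors' adjusted p was under 0.05, so a gene has counts in a group only if some table with that group lists it. Counts were available for 82 of the 84 genes in J0_CTL, 83 in J7_CTL and 78 in each RIPK3 group. They were available for only 2 genes in J0_MLKL and 7 in J7_MLKL. The 77 genes with counts in all 12 CTL and RIPK3 libraries (41 large subunit, 29 small subunit, and 7 paralogs, copies or Rps19bp1) were used wherever groups are set side by side.

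The 77 genes together held the largest part of the reads in undifferentiated control cells and the smallest in differentiated cells labelled RIPK3. Their share of all library reads was 6.14, 5.80 and 5.64% in the 3 J0_CTL libraries (mean 5.86 ± 0.257%, SD, n = 3) and 4.92 to 5.03% in J0_RIPK3 (4.98 ± 0.0609%). After differentiation it was 3.62, 3.42 and 3.46% in J7_CTL (3.50 ± 0.107%) and 3.19, 3.17 and 2.92% in J7_RIPK3 (3.09 ± 0.154%). The 4 groups did not overlap. In bulk RNA, fewer cells of a type and less RNA per cell cannot be told apart, and a share of reads also falls when other RNAs rise.

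**Figure D1:**
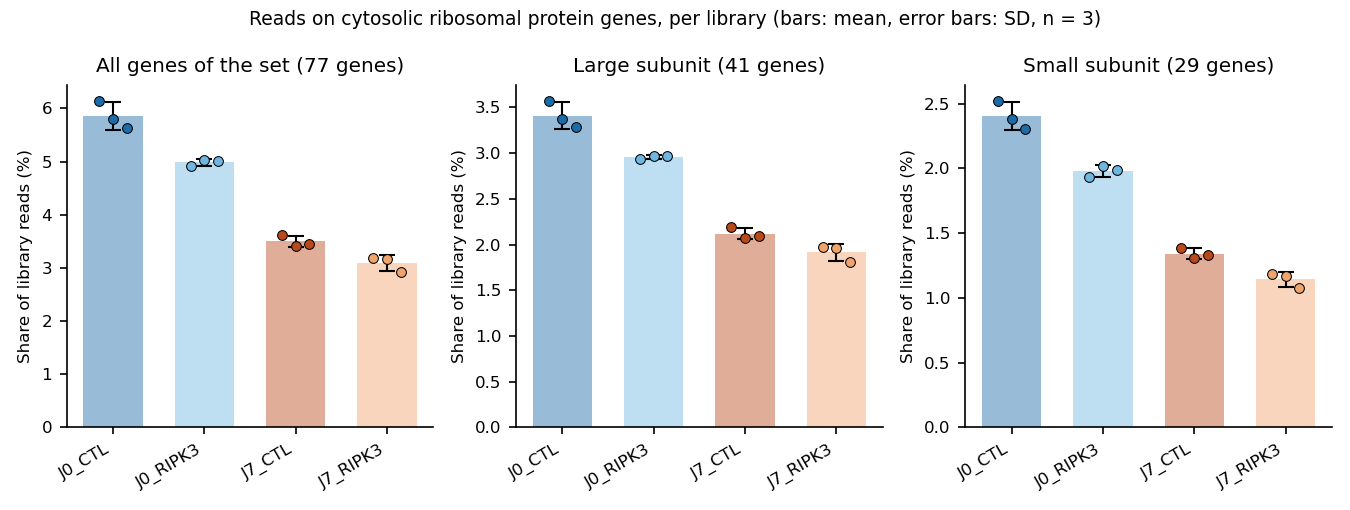
Share of library reads (%) on the 77 genes with counts in all CTL and RIPK3 libraries, and on the large and small subunit genes among them. Bars are means, error bars SD and points the 3 libraries; in all 3 panels J0_CTL is highest and J7_RIPK3 lowest.

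Both subunits held less of the reads after differentiation. Small subunit genes held 2.40 ± 0.108% of reads in J0_CTL and 1.34 ± 0.0432% in J7_CTL, and large subunit genes 3.41 ± 0.148% and 2.12 ± 0.0630% (SD, n = 3). In cells labelled RIPK3 the small subunit went from 1.98 ± 0.0436% to 1.14 ± 0.0575% and the large from 2.96 ± 0.0175% to 1.91 ± 0.0934%. The difference between subunits was not tested.

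Levels between genes are compared here by FPKM, the authors' reads per kilobase of gene scaled to the library total. The median of the 70 strict ribosomal protein genes was 405 FPKM in J0_CTL, 336 in J0_RIPK3, 241 in J7_CTL and 216 in J7_RIPK3, where the median of all 11243 genes with counts in those libraries was 6.38 to 6.52. Rplp1, an acidic protein of the stalk that recruits elongation factors, was the highest in each of the 4 groups, from 3783 FPKM in J0_CTL to 1599 in J7_RIPK3. At the other end Rpl21 and Rpl34 lay below 10 FPKM in each group. FPKM rests on the authors' gene length, which was 499 bases for Rplp1 and 6256 for Rps24. Their reference transcripts had 547 and 1698 bases, so the order between genes depends in part on the lengths used. By CPM, Rplp0 lay above Rplp1 in J0_CTL (3324 against 1888).

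**Figure D2:**
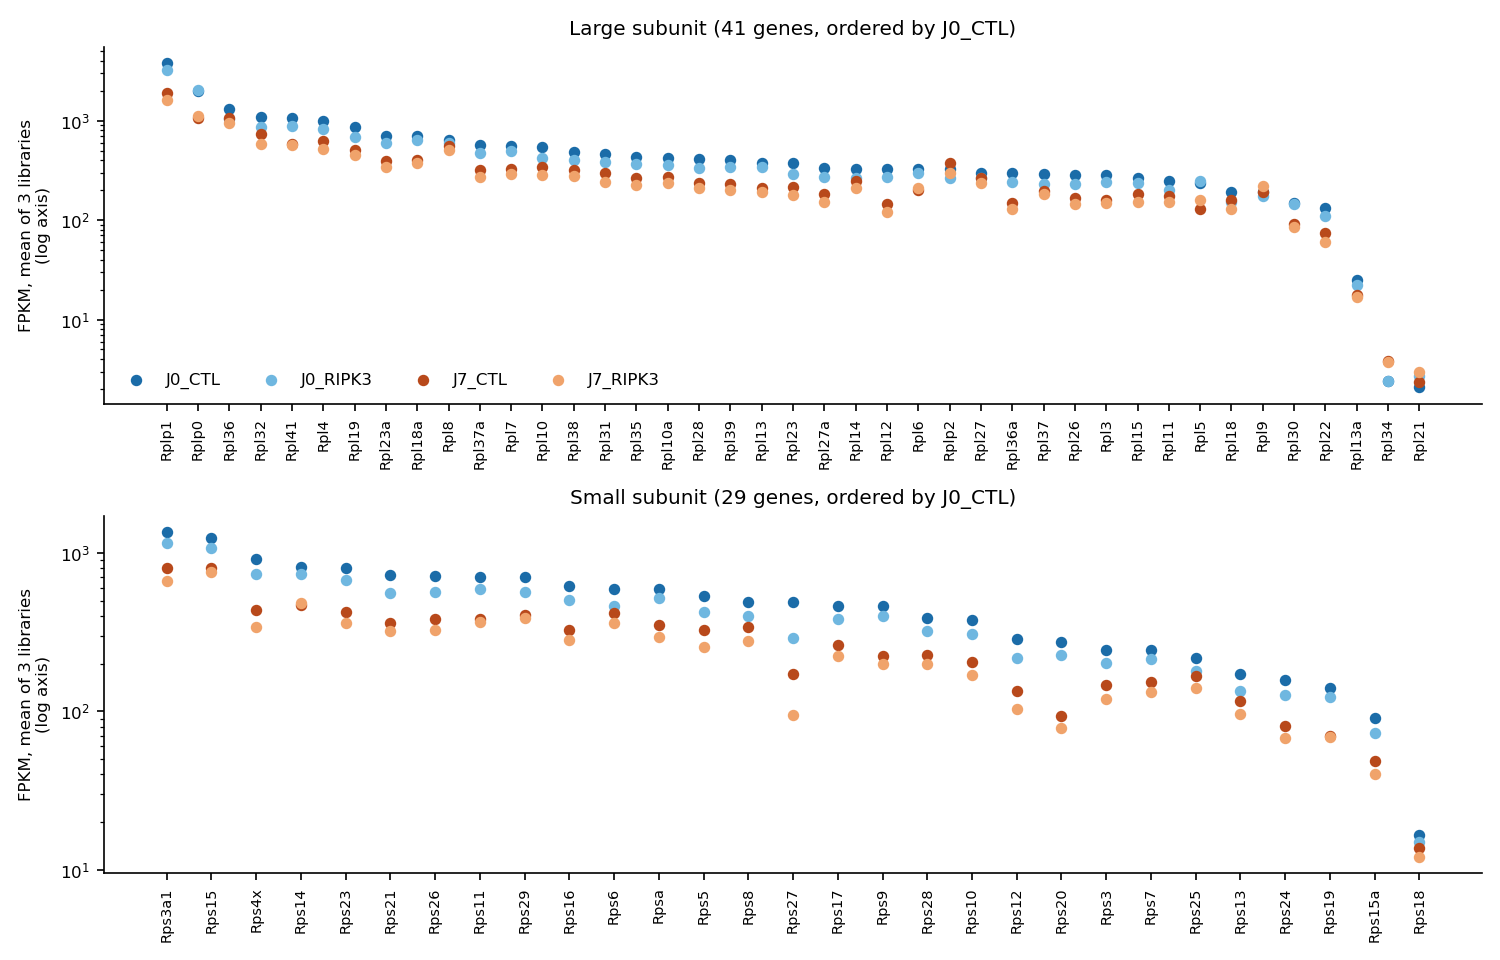
Mean FPKM of 3 libraries (log axis) for 41 large and 29 small subunit genes in the 4 CTL and RIPK3 groups, ordered by J0_CTL. Most genes keep their place in the order while the J7 points lie below the J0 points; Rpl13a, Rpl34, Rpl21 and Rps18 lie apart at the low end.

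Low counts marked 8 of the strict ribosomal protein genes: Rpl13a, Rpl21, Rpl24, Rpl29, Rpl34, Rpl35a, Rps18 and Rps2 were under 100 CPM in each group with counts. In the transcripts of the 8 genes, a median of 41.5% of 50-base windows also occurred elsewhere in the GRCm39 genome, against 44.3% for the other 67. How the authors' counting treated reads with several matches is not given in the sources used here. Levels of genes that share sequence with a copy are therefore uncertain. Among genes named below, the share of such windows was 92.8% for Rpl9, 92.6% for Rps6, 85.4% for Rps12 and 83.0% for Rps4x.

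Differentiation of control cells lowered most of these genes. Of 81 tested in J7_CTL against J0_CTL, 72 fell, 6 rose and 3 were not called at adjusted p under 0.05 (edgeR quasi-likelihood test, adjusted over all 12055 genes tested). Over all genes tested 47.6% were called lower and 48.2% higher, 95.9% in either direction. The authors listed 12218 genes for this pair, each with an adjusted p under 0.05. Most genes tested were therefore already selected on this same comparison. A call adds little here, and the direction is what is described. In the authors' deposited table for this pair 78 of the 84 genes (92.9%) were listed, against 80.4% of all joined genes. The median log2 fold change was -0.82 for the ribosomal protein genes and 0.03 for all genes. All 30 small subunit genes fell (median -0.89), as did 39 of 44 large subunit genes (median -0.76), with 3 large subunit genes higher.

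The small subunit protein Rps20 showed the largest fall of a strict ribosomal protein. The gene (ENSMUSG00000028234, chr4:3831334-3835665, mm10) stood at 1135, 1114 and 1102 CPM in J0_CTL and at 403, 381 and 366 in J7_CTL. All J7 libraries lay far below all J0 libraries. It was 2.91-fold lower (log2 fold change -1.59 ± 0.0338 SE, adjusted p = 4.2e-23). In cells labelled RIPK3 it went from 938, 904 and 941 CPM to 331, 323 and 309, a log2 fold change of -1.56 ± 0.0350 (adjusted p = 1.1e-20).

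Rps27, a zinc finger protein of the small subunit, fell about as much but was far less even between libraries. It stood at 598, 501 and 423 CPM in J0_CTL and at 225, 131 and 180.2 in J7_CTL (log2 fold change -1.55 ± 0.114, adjusted p = 4.2e-12). In cells labelled RIPK3 it went from 220.2, 364 and 327 CPM to 68.3, 66.6 and 163 (-1.62 ± 0.220, adjusted p = 5.4e-07). Within each pair the J7 libraries were all below the J0 libraries, but J7_RIPK3 replicate 3 was more than double its group mates. In its transcript 63.1% of 50-base windows occurred elsewhere in the genome.

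Stalk proteins split. Rplp0, the stalk base, fell from 3324 ± 161 to 1767 ± 42.0 CPM (SD, n = 3), a log2 fold change of -0.96 (adjusted p = 3.1e-19). Rplp1 fell from 1888 ± 105 to 938 ± 34.6 CPM, a log2 fold change of -1.05 (adjusted p = 3.6e-19). Its partner Rplp2, with which it forms the stalk dimers, did the opposite: it stood at 743, 651 and 627 CPM in J0_CTL and 809, 746 and 777 in J7_CTL, and was called higher by 0.16 ± 0.0430 on the log2 scale (adjusted p = 0.0012). The J0 and J7 libraries of Rplp2 did not overlap, though the highest J0 value (743) and the lowest J7 value (746) were nearly equal. In cells labelled RIPK3 Rplp2 rose by 0.12 ± 0.0331 (adjusted p = 0.0019), from 553 ± 4.66 to 613 ± 21.8 CPM, while Rplp0 and Rplp1 fell by 0.89 and 1.06.

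Rpl5 and Rpl11 bind the 5S ribosomal RNA and, when ribosome assembly fails, Mdm2. Rpl5 fell from 916 ± 24.6 to 507 ± 17.5 CPM in control cells (log2 fold change -0.90) and Rpl11 from 667 ± 15.8 to 469 ± 15.2 (-0.55). Rpsa, the laminin receptor protein of the small subunit, fell by 0.80 and Rps6, the S6 kinase substrate, by 0.57. Rps18 fell by 0.33, from a low level of 41.4 ± 3.75 to 34.0 ± 2.01 CPM. Of the proteins that line or flank the exit tunnel of the large subunit, 9 of 9 tested fell, and of the proteins of the small subunit head 15 of 15. All 18 tested genes of the list known from Diamond-Blackfan anaemia, an inherited red cell aplasia, fell too. These lists overlap each other and come largely from the same 81 genes, of which 72 fell, all 30 small subunit genes among them. Their counts are therefore no separate result.

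The genes that rose were mostly paralogs or lowly counted genes. Rpl36al, a second copy of the Rpl36a protein, stood at 0.546, 0.480 and 0.404 CPM in J0_CTL and at 1.74, 1.79 and 1.72 in J7_CTL (log2 fold change 1.80 ± 0.271, adjusted p = 1.4e-06). Those levels rest on 10 to 19 reads per library at J0 and 42 to 46 at J7. Rpl7l1, a relative of Rpl7 that acts in pre-60S maturation, rose from 85.6 ± 3.82 to 127 ± 2.90 CPM (0.52 ± 0.0356, adjusted p = 1.3e-12). Rpl29 rose by 1.05 and Rpl34 by 0.61, both at no more than 11.6 CPM in any library, and Rps19bp1 by 0.55.

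Other paralogs took other courses. Rps27l, a p53-responsive relative of Rps27, fell by 0.35, from 119 ± 4.51 to 96.6 ± 1.59 CPM. Rpl22l1, the paralog of Rpl22, stood at 49.2 ± 0.904 CPM in J0_CTL and 52.1 ± 3.08 in J7_CTL, a log2 fold change of 0.03 with adjusted p = 0.48. Rpl22 itself fell by 0.89. Rpl36a-ps1 fell by 1.61 from 2.94 to 0.995 CPM, and Rps12-ps3, in whose transcript every 50-base window occurred elsewhere, by 0.97 beside 1.13 for Rps12. Rpl9 (585 CPM in both groups, log2 fold change -0.05, adjusted p = 0.17) and Rpl21 (0.14, adjusted p = 0.24) were the other genes not called. Rpl17 was called lower by 1.35, but its libraries overlapped: 452, 231 and 465 CPM in J0_CTL and 260, 96.2 and 109 in J7_CTL.

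Differentiation of cells labelled RIPK3 gave much the same values in other libraries. Of 77 genes tested in J7_RIPK3 against J0_RIPK3, 70 fell, 6 rose and Rpl21 was not called, where 48.5% of 11798 genes were called lower and 49.3% higher (97.8% in either direction). In the authors' deposited table for this pair, 76 of the 84 genes (90.5%) were listed, against 80.7% of all joined genes. Here too most genes tested were already selected on this same comparison. The median log2 fold change was -0.71, against 0.04 for all genes. All 29 small subunit genes fell, and the lowest after Rps27 and Rps20 was Rpl12, a protein of the stalk base, at -1.20. The 6 that rose were Rpl36al (1.80), Rps19bp1 (0.68), Rpl34 (0.61), Rpl7l1 (0.42), Rpl9 (0.32) and Rplp2 (0.12). Control and RIPK3 changes share no library. Across the 77 genes, which are not independent replicates, 75 had the same sign in both (Pearson r 0.971, Spearman rho 0.941, as a description).

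**Figure D3:**
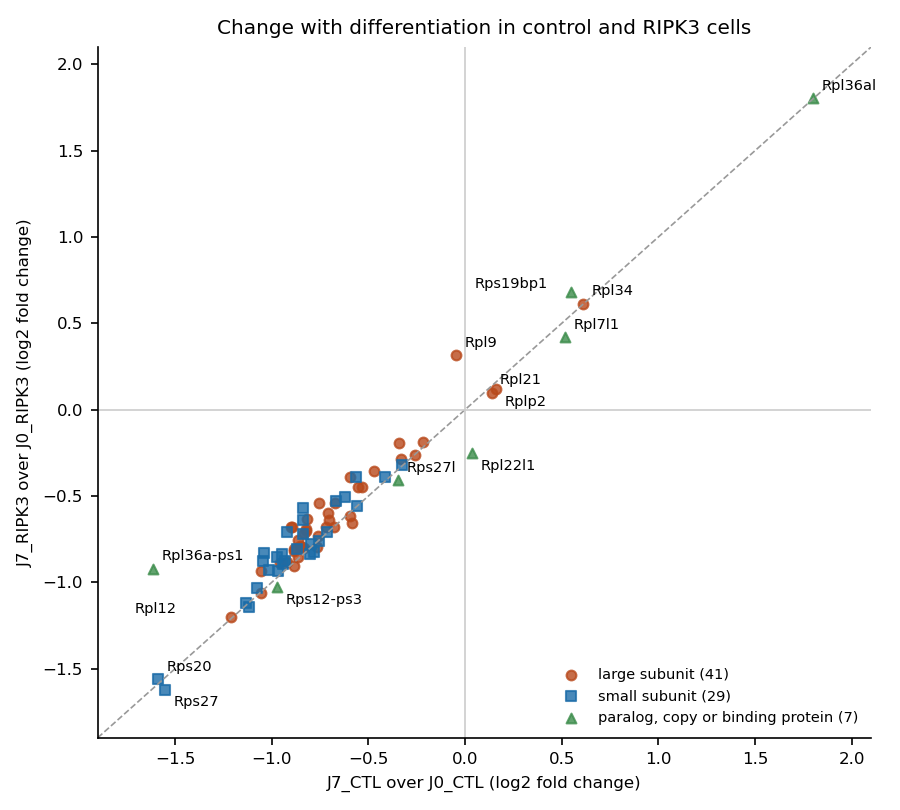
Log2 fold change of J7_RIPK3 over J0_RIPK3 against that of J7_CTL over J0_CTL for 77 genes; the dashed line marks equal change. Most points lie along the line below 0 on both axes, Rps20 and Rps27 at the lower end and Rpl36al at the upper end, with Rpl9 above the line and Rpl22l1 below it.

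Ribosomal proteins with other names were read beside these. Rack1, a scaffold on the small subunit, fell by 0.59 in control and 0.57 in cells labelled RIPK3. Fau, whose product is cut into a ubiquitin-like and a ribosomal protein, fell by 0.49 and 0.42.

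Ribosome biogenesis factors, which process ribosomal RNA and assemble the subunits, mostly rose in the same comparison. Of 52 ribosome biogenesis factors tested in control cells, 47 rose and 4 fell (median log2 fold change 0.64), where 48.2% of all genes were called higher. The highest was Bysl, a small subunit assembly factor, at 60.2 ± 3.88 against 19.8 ± 1.22 CPM (1.56, adjusted p = 4.1e-18). Lowest was Nop53 at -0.60. Of 13 RNA polymerase I genes and regulators, 8 rose and 5 fell, with Myc highest at 2.02 and Taf1c lowest at -0.78.

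Translation factors were divided. In control cells 18 of 29 rose and 9 fell, and of 14 eIF3 subunit genes 9 rose and 5 fell. Over all genes 48.2% were called higher and 47.6% lower. The elongation factor Eef1a1, itself a TOP mRNA, was the lowest at -0.82 (6489 against 11135 CPM), and Eif5a the highest at 1.15. Eif3e was the lowest eIF3 gene at -0.81, and Eif3j1 the highest at 1.08. Of 16 genes of the mTOR and Larp1 branch, 12 rose and 4 fell, with the translation repressor Eif4ebp1 highest at 1.89 (366 against 95.5 CPM) and Sesn1 lowest at -0.60. Since the list mixes repressors with other genes, its counts do not describe the activity of the branch.

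Mitochondrial ribosomal proteins are a separate set, made for the organelle's own ribosome. Of 73 tested in control cells 71 rose and 1 fell, with a median log2 fold change of 0.84, and in cells labelled RIPK3 70 of 72 rose and 2 fell (median 0.96). Over all genes, 48.2% were called higher and 47.6% lower in control cells, and 49.3% and 48.5% in cells labelled RIPK3. Mrpl12 was the highest in both, at 2.56 and 2.50, and Mrpl23 the lowest at -0.27 and -0.38. The same lists in cells labelled RIPK3 gave 46 higher and 6 lower of 53 biogenesis factors, 8 and 5 of 13 polymerase I genes, and 15 and 2 of 17 mTOR-branch genes. Of the ribosome surveillance list (Mdm2, Trp53 and factors of ribosome rescue), 3 of 6 rose and 3 fell in control cells, shares near those of all genes. Trp53 was the lowest of that list at -0.94.

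Over the 12 CTL and RIPK3 libraries the level of a single ribosomal protein gene mostly followed the mean of all. The Pearson correlation of a gene's log2 CPM with the mean log2 CPM of the 77 had a median of 0.986, was above 0.9 for 61 genes and below 0 for 7: Rpl36al, Rps19bp1, Rpl34, Rpl7l1, Rpl9, Rpl21 and Rplp2. The libraries fall into groups, so these values describe the group pattern. Of 7348 other coding genes at 10 CPM or more, the 5 most like the mean were Thap12 (r = 0.996), Itm2b (0.993), Ergic3 (0.993), Lxn (0.992) and Ifi203 (0.992). Itm2b, for instance, stood at 922 CPM in J0_CTL, 821 in J0_RIPK3, 551 in J7_CTL and 481 in J7_RIPK3.

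Cells labelled RIPK3 had less of these transcripts than control cells already before differentiation, by a small and even margin. Of 78 genes tested in J0_RIPK3 against J0_CTL, 68 were lower, 2 higher and 8 not called, where 27.4% of 11044 genes were called lower and 28.3% higher (55.8% in either direction). The median log2 fold change was -0.29, against -0.01 for all genes. All 29 small subunit genes were lower, and 37 of 42 large subunit genes. In the authors' deposited table for this pair 67 of the 84 genes (79.8%) were listed, against 34.0% of all joined genes.

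Rps27 was the lowest of them here as well. It stood at 598, 501 and 423 CPM in J0_CTL and 220.2, 364 and 327 in J0_RIPK3, with no overlap, and was 1.67-fold lower (log2 fold change -0.76 ± 0.112, adjusted p = 4.0e-06). Next came Rpl36a-ps1 (-0.51, at 2.08 against 2.94 CPM) and Rps12 (-0.41). Rps6 stood at 995, 930.1 and 911 CPM in J0_CTL and 724, 763 and 727 in J0_RIPK3, all J0_RIPK3 libraries below all J0_CTL libraries (log2 fold change -0.38 ± 0.0333, adjusted p = 1.6e-09).

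Of the stalk, Rplp1 was lower by 0.23 and Rplp2 by 0.31, while Rplp0 was not called, at 3324 ± 161 CPM in J0_CTL and 3376 ± 24.5 in J0_RIPK3 (log2 fold change 0.00 ± 0.0306, adjusted p = 0.98). Rpl11 was lower by 0.31, Rpsa by 0.21 and Rps18 by 0.18, the last not called without J0_CTL replicate 2 or 3 (adjusted p = 0.081 and 0.073). Rpl5 stood at 916 ± 24.6 CPM in J0_CTL and 973 ± 10.2 in J0_RIPK3 (0.07, adjusted p = 0.065), and was called higher with library totals alone (0.09, adjusted p = 0.020). The 2 genes called higher were Rpl21 (0.37, at 9.26 against 7.05 CPM) and Rps27l (0.09, at 128 against 119 CPM). Rpl21 was not called without J0_RIPK3 replicate 3 (adjusted p = 0.064), nor Rps27l without any 1 of J0_CTL replicates 2 and 3 and J0_RIPK3 replicates 1 and 2 (adjusted p 0.058 to 0.16). Among the paralogs, Rpl22l1 (0.06), Rpl7l1 (-0.06) and Rpl36al (0.45, on 10 to 21 reads per library) were not called. Fau was lower by 0.34 and Rack1 by 0.25.

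In J0_RIPK3 against J0_CTL, where 28.3% of all genes were called higher and 27.4% lower, 14 of 51 biogenesis factors were higher, a share near that of all genes, and 8 lower. Noc4l was the highest at 0.61. For eIF3 the counts were 1 higher and 7 lower of 14, with Eif3b highest at 0.54 (247 against 168 CPM). Of the translation factors 10 of 29 were higher and 14 lower, from Eif4e at 0.33 to Eif4a2 at -0.36. Of 72 mitochondrial ribosomal proteins 4 were higher and 10 lower. Of the ribosome surveillance list 3 of 6 were higher and 1 lower. Mdm2, which Rpl5 and Rpl11 bind, was the highest of that list at 0.70 (1811 against 1100.1 CPM). In J0_MLKL against J0_CTL Mdm2 was higher as well, by 1.20.

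After differentiation the cells labelled RIPK3 again had less, with a wider spread among the genes. Of 78 genes tested in J7_RIPK3 against J7_CTL, 60 were lower, 6 higher and 12 not called, where 29.5% of 11170 genes were called lower and 29.6% higher (59.1% in either direction). The median was -0.18, against 0.00 for all genes. Rps27 was lowest at -0.81 ± 0.215 (adjusted p = 0.0026), but its libraries overlapped, at 225, 131 and 180.2 CPM in J7_CTL and 68.3, 66.6 and 163 in J7_RIPK3, and the DESeq2 Wald test did not call it (adjusted p = 0.17). Rps12 (-0.37) and Rps4x, an X-linked small subunit gene (-0.36), followed, both without overlap. Rplp2 was lower by 0.33, Rpsa by 0.23, Rplp1 by 0.22, Rps6 and Rpl11 by 0.18 and Rps18 by 0.16. In the authors' deposited table for this pair 58 of the 84 genes (69.0%) were listed, against 37.5% of all joined genes.

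Paralogs differed here too. Rpl7l1 was lower by 0.14 and Rpl22l1 by 0.21, the copies Rpl7a-ps5 by 0.31 and Rps12-ps3 by 0.26, while Rpl36al was higher by 0.48 (2.42 ± 0.135 against 1.75 ± 0.0358 CPM, adjusted p = 0.045). That call of Rpl36al was lost in 11 of the alternatives, the removal of single libraries among them. Rps27l (0.04) and Rpl36a-ps1 (0.19) were not called.

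In the same comparison, where 29.5% of all genes were called lower and 29.6% higher, 25 of 53 biogenesis factors were lower and 5 higher, from Sdad1 at 0.69 to Nop56 at -0.46 (124 against 173 CPM). Translation factors were lower for 14 of 29 and higher for 5, with Tpt1, itself a TOP mRNA, lowest at -0.47. For eIF3, 8 of 14 subunit genes were lower and 2 higher. Of the mitochondrial ribosomal proteins 23 of 72 were higher, a share near that of all genes, and 7 lower (median log2 fold change 0.04). Of the ribosome surveillance list 5 of 7 were higher and 2 lower. Its highest gene was Mdm2 at 0.97 (1433 against 736 CPM) and its lowest Trp53 at -0.31. In J7_MLKL against J7_CTL Mdm2 was higher as well, by 1.67.

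The genes that went the other way lay mostly on 1 chromosome. The 6 genes higher in J7_RIPK3 were Rpl36al (0.48), Rpl21 (0.35), Rpl5 (0.30), Rpl9 (0.22), Rplp0 (0.09) and Rpl6 (0.08), and 5 of the 6 lie on chromosome 5, which holds just those 5 of the 84 genes. This was seen after the values were known, and Rpl6 is named only for it. Rpl5 (chr5:107900502-107909005, mm10) stood at 526, 491 and 506 CPM in J7_CTL and at 631, 653 and 578 in J7_RIPK3, without overlap (adjusted p = 5.2e-07). Rpl9 (chr5:65388364-65391444) stood at 600.5, 570.1 and 583 CPM in J7_CTL and at 705, 691 and 635 in J7_RIPK3, also without overlap. For Rplp0 and Rpl6 the libraries overlapped, and with library totals alone as the scaling, or with the authors' size factors, 3 genes instead of 6 were called higher. The count was also 3 without any 1 of J7_CTL replicates 2 and 3 and J7_RIPK3 replicates 1 and 2.

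The other genes of chromosome 5 showed the same displacement. At J7 the 812 genes there that are not ribosomal proteins had a median log2 fold change of 0.41, RIPK3 over CTL, against -0.02 for 10280 genes elsewhere, and 78.2% of them were called higher against 25.9%. At J0 the median of 770 such genes was 0.26 against -0.02 elsewhere, with 66.5% against 25.6% called higher. Chromosome 5 had the highest median of the 20 chromosomes at both times. The 5 ribosomal protein genes there had a median of 0.00 at J0 and 0.22 at J7, against -0.29 and -0.19 for the 73 others, a difference of 0.29 and 0.41. Each lay below the chromosome's median except Rpl21 at J0. Next in order was chromosome 18 (0.20 at J0 and 0.31 at J7), where Rps14 lies. Rps14 was lower by 0.18 at J0 and stood at 0.04 at J7 (adjusted p = 0.37). The cause of the displacement was not tested.

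**Figure D4:**
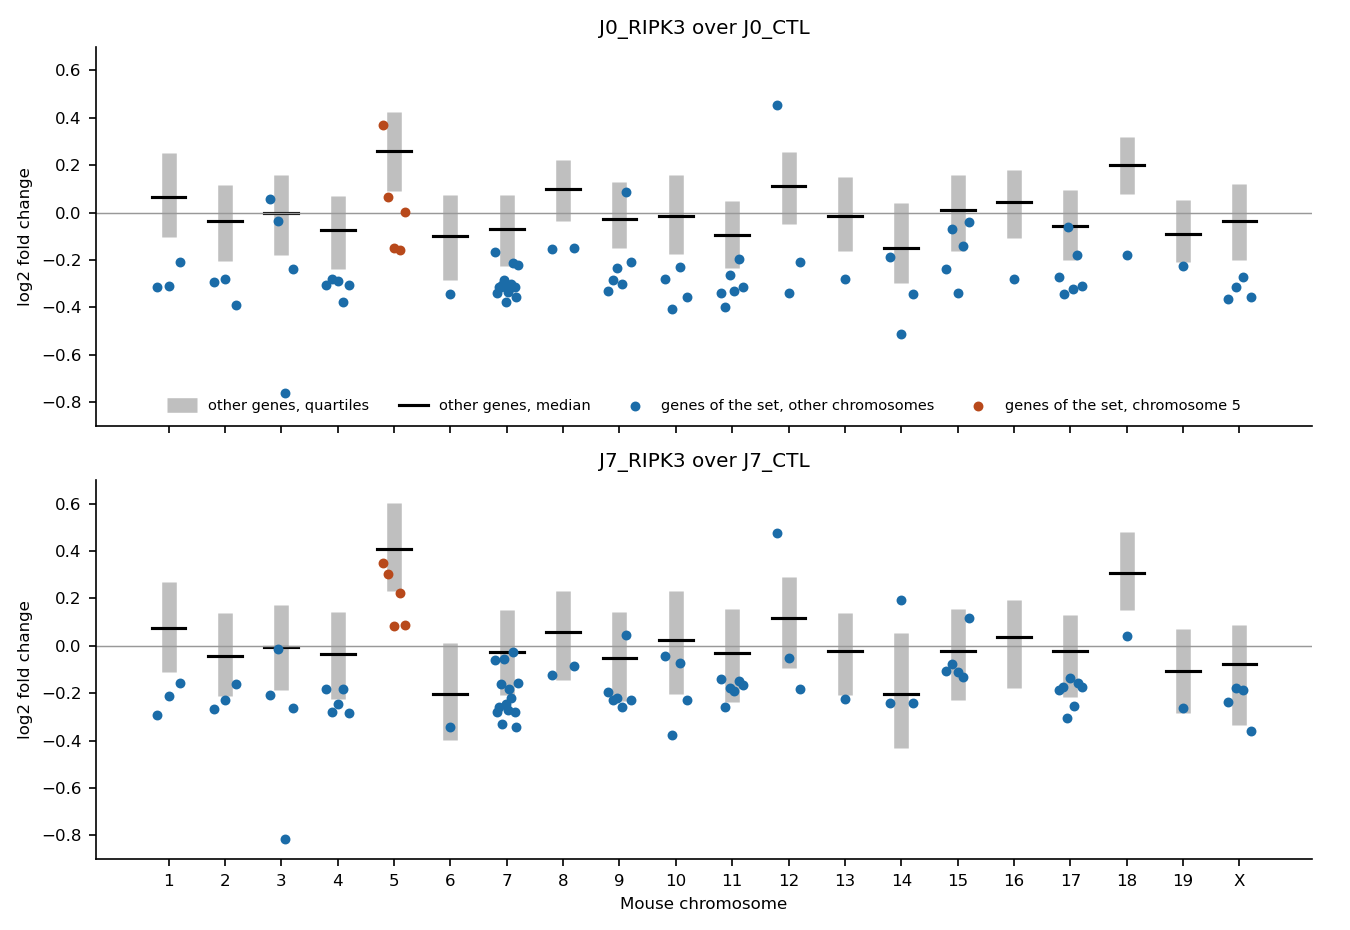
Log2 fold change of RIPK3 over CTL at J0 (upper) and J7 (lower) by mouse chromosome: grey bars are the quartiles and black lines the medians of all other genes, points the ribosomal protein genes. Chromosome 5 has the highest median in both panels, and its 5 ribosomal protein genes (red) lie above 0 at J7 while most others lie below.

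The test of whether the differentiation change itself differed between control cells and cells labelled RIPK3 called 19 of 77 genes, 18 with a larger value (that is, a smaller fall or a larger rise) in cells labelled RIPK3 and 1 with a smaller one. Over all 11027 genes 18.4% were called larger and 20.6% smaller, 39.0% in either direction. The median difference was 0.07 for the ribosomal protein genes and 0.01 for all genes. The largest called was Rpl9 (0.38 ± 0.0512, adjusted p = 6.3e-07), not called in control cells and higher by 0.32 in cells labelled RIPK3, then Rps29 (0.29) and Rpl41 (0.24). Rpl22l1 was the single gene with a smaller value (-0.27 ± 0.0768, adjusted p = 0.0067). The count of 18 depended on the scaling: 11 genes were called with library totals alone and 29 with DESeq2 size factors. It was 11 without J0_CTL replicate 1 or J0_RIPK3 replicate 1, 30 without J0_CTL replicate 3 and 28 without J7_RIPK3 replicate 3.

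Data on cells labelled MLKL were thin and already selected on the comparison, so the counts here support nothing about the set. At J0 the tables held 2 of the 84 genes, and both were called higher, where 40.4% of 3824 genes were called higher and 43.2% lower (83.6% in either direction). The authors' deposited table for this pair lists 2.38% of the ribosomal protein genes and 20.1% of all joined genes. The retrogene copy Rps27rt stood at 146, 149 and 143 CPM in J0_CTL and at 358, 208 and 162 in J0_MLKL (log2 fold change 0.76 ± 0.252, adjusted p = 0.021). Rpl22l1 stood at 50.2, 48.8 and 48.6 CPM in J0_CTL and at 64.9, 100.3 and 62.7 in J0_MLKL (0.66 ± 0.165, adjusted p = 0.0065). The MLKL libraries were all higher for both genes but differed much among themselves, and without any 1 of the J0_CTL libraries only Rpl22l1 was called (Rps27rt adjusted p 0.053 to 0.065).

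At J7 the tables held 7 genes, named here because they are all there are. In J7_MLKL against J7_CTL, 6 were called higher and 1 lower, where 48.5% of 7263 genes were called higher and 46.4% lower (94.9% in either direction). The authors' deposited table for this pair lists 8.33% of the ribosomal protein genes and 48.0% of all joined genes. Rplp1 stood at 977, 924 and 912 CPM in J7_CTL and at 1199.8, 1121 and 3274 in J7_MLKL (log2 fold change 1.10 ± 0.423, adjusted p = 0.040, and 0.054 with library totals alone). Rps20 stood at 403, 381 and 366 CPM in J7_CTL and at 536, 526 and 1478 in J7_MLKL (1.25 ± 0.418, adjusted p = 0.024). Over all genes compared, too, J7_MLKL replicate 3 stood far apart from its group mates, so its high values are not particular to these genes. In Rplp1 and Rps20 the third MLKL library was more than double its group mates, which still lay above all control libraries.

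The same shape held for Rpl13 (577, 531 and 543 against 857, 805 and 2329 CPM, log2 fold change 1.38), Rps28 (360.2, 308 and 322 against 427, 429 and 1280.2, 1.22) and Rps4x (736, 700.4 and 711 against 899, 895 and 2029, 0.94). Rpl24 was higher by 1.63 but rests on 12 to 16 reads per control library and 23 to 68 per MLKL library. Rpl36al was lower by 1.17, at 0.502, 0.461 and 1.17 CPM against 1.74, 1.79 and 1.72. Without J7_MLKL replicate 3 6 genes were again called higher and 1 lower, but the median log2 fold change of the 7 was 0.44 in place of 1.22. Without any 1 J7_CTL library, 1 gene (Rpl24) was called higher and 0 lower at adjusted p under 0.05, and without J7_MLKL replicate 1 or 2 Rpl36al was not called. Scaling by library totals alone moved the median of all genes in this comparison from 0.17 to 0.07. In J7_MLKL the adipocyte marker sum was 3533 to 5082 CPM against 21487 to 22564 in J7_CTL and the preadipocyte sum 762 to 1544 against 164 to 174. Their part in these values was not tested.

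**Figure D5:**
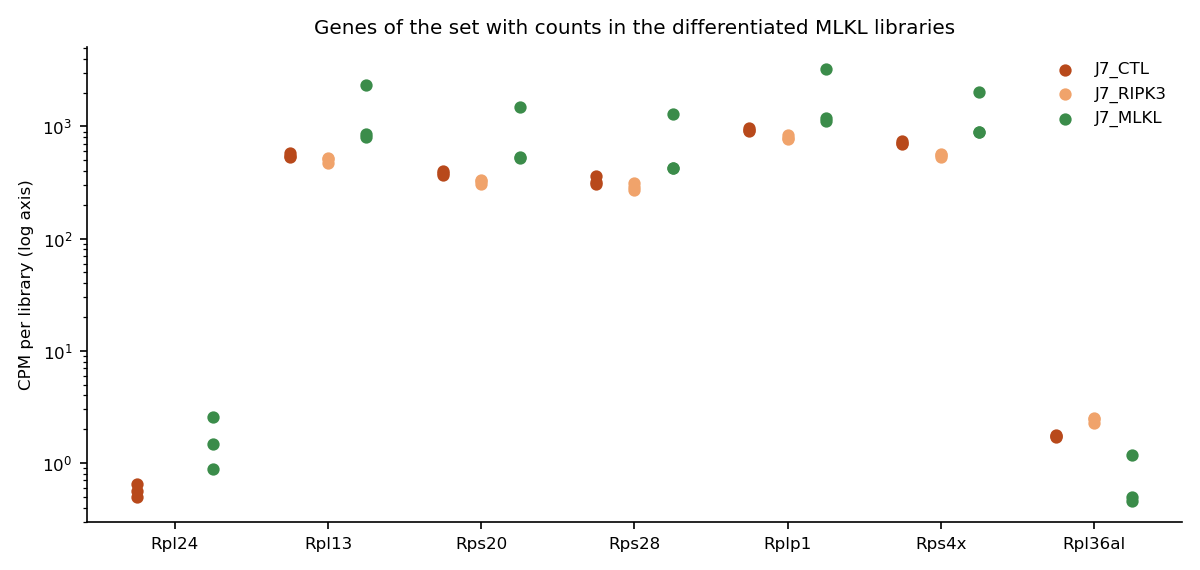
CPM per library (log axis) of the 7 genes with counts in J7_MLKL, beside J7_CTL and, where present, J7_RIPK3. The 6 genes called higher have all 3 J7_MLKL points above the J7_CTL points, with 1 library far above the other two in most of them, and Rpl36al lies below.

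No gene of the set had counts in both MLKL groups, so neither the differentiation change of cells labelled MLKL nor its difference from control could be given, and the authors' deposited table for that pair lists 0 of the 84, against 12.4% of all joined genes. A gene that the tables do not list was not shown to be unchanged.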

How the data were processed

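RNA of 18 libraries (6 groups of 3) was analysed from 7 deposited comparison tables. The submitters' processing notes name mm10 as build and, as tools, featureCounts 1.5.0-p3, DESeq2, HISAT2 and FastQC 0.11.9. The authors deposited raw read counts per gene, normalised counts (a signal: the count over a size factor per library) and FPKM. Their log2 fold changes, p-values and gene lengths in bases (other columns) were also deposited. A gene stands in a table only if its deposited adjusted p is below 0.05. All calls and their adjustment therefore run on genes already selected, in part on the comparison tested.

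Counts were joined by gene identifier. Of 88950 counts found in more than 1 table, 0 differed. Library totals (20.2 to 36.9 M reads) were recovered from count, FPKM and length. CPM is the count scaled to that total. Folds are ratios of mean CPM. Each comparison was fitted in edgeR 4.0.16 under R 4.3.3, on all genes with counts in its groups only, with filterByExpr, TMM factors on the recovered totals and the quasi-likelihood F test. P-values were Benjamini-Hochberg adjusted over all genes tested, and genes under 0.05 are called. In a test on simulated data for J7_CTL against J0_CTL (11935 genes), 90 of 100 changes of 0.5 on the log2 scale and 100 of 100 of 1 were recovered. There were 8 false calls. The simulation gave every gene the same dispersion and changed few genes, equally often up and down. It shows that the fit runs as intended. It does not cover data in which most genes change, smaller differences such as those of RIPK3, or the uneven MLKL libraries.

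Alternatives were library totals alone, the authors' size factors, DESeq2 1.42.0 (size factors, or its Wald test), no filter or a mean of 50 counts, a replicate block, and leaving out each library. No 2 libraries of a group agreed within sampling noise. The mean chi-square per gene, larger where libraries differ more, was 2.79 to 7.74 between libraries of the CTL and RIPK3 groups. In J7_MLKL it was 217 and 207 for pairs with replicate 3 and 5.05 for the other pair. In J0_MLKL it was 48.3 and 55.0 for pairs with replicate 2 and 3.26 for the other pair.

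Named genes are the stalk genes, Rpsa, Rps6, Rpl5, Rpl11, Rps27a (not among the rows) and Rps18, all paralogs, the 3 highest and 3 lowest called genes per comparison, and the highest and lowest called gene of pathway lists; Fau and Rack1 stand beside them. 1 further gene of that rule is not reported here. A few genes that this naming rule does not cover (Rpl6, Rpl17, Rpl22, Rps14, Rps28, Mdm2 and Trp53) were named after their values were seen. The genes, lists and tests were chosen with earlier results of these data known.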

Additional observations from a re-analysis of the deposited data

Results flagged for a closer look

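The change from J0 to J7 differed between control cells and cells labelled RIPK3, by a test of the difference itself (edgeR, adjusted p under 0.05), for 18 ribosomal protein genes with a larger value in cells labelled RIPK3 and 1 with a smaller value, of 77 tested. Over all genes 18.4% were called larger, 20.6% smaller and 39.0% in either direction, against 19 of the 77 here, a smaller share than over all genes. The count of 18 ranged from 11 to 30 without single libraries. Among the genes named, the difference on the log2 scale was 0.38 for Rpl9, 0.29 for Rps29, 0.24 for Rpl41, 0.24 for Rpl5, 0.23 for Rpl6, 0.20 for Rps6, 0.13 for Rpl3, 0.12 for Rpl11 and -0.27 for Rpl22l1. Rpl9, Rpl5 and Rpl6 lie on chromosome 5, where the median difference of the 784 other genes was 0.14, against 0.00 for genes elsewhere.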

How the results depend on the processing

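Of 1236 values of named genes under alternative settings, 1149 kept direction and call, 78 lost the call, 6 gained it and 3 reversed. The 3 reversals were all Rplp0 in J0_RIPK3 against J0_CTL, with a main value of 0.00: it was -0.0022 with a mean of at least 50 counts, -0.0346 without J0_CTL replicate 3 and -0.0046 without J0_RIPK3 replicate 3. Its range without single libraries was -0.0346 to 0.0287. Counts of genes called lower in the differentiation and RIPK3 comparisons moved by less than 1.5 times in all settings run. Leaving out single libraries, the count called higher ranged from 1 to 3 in J0_RIPK3 against J0_CTL, 1 to 2 in J0_MLKL against J0_CTL, 3 to 7 in J7_RIPK3 against J7_CTL and 1 to 6 in J7_MLKL against J7_CTL. It ranged from 11 to 30 in the test of the difference, with 1 to 2 called smaller there and 0 to 1 lower in J7_MLKL against J7_CTL. The count higher in J7_RIPK3 was 3 with library totals alone or the authors' size factors. The difference test gave 11 with library totals alone and 29 with DESeq2 size factors. With a mean of at least 50 counts 0 genes were lower in J7_MLKL, since Rpl36al was then not tested. With the reads of joined genes as denominator the shares were 6.94% in J0_CTL, 5.78% in J0_RIPK3, 3.83% in J7_CTL and 3.38% in J7_RIPK3, in the same order. The causes were not tested.

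Same-numbered libraries did not pair: correlations of their deviations ran from -0.853 to 0.721, both extremes in J7_MLKL against J0_MLKL. In comparisons among CTL and RIPK3 groups they ran from -0.0886 to 0.0939. In 7 of 21 checks (3 numbers in each of 7 comparisons) a library correlated best with its own number. With a replicate block 6 and 72 genes were called higher and lower in control differentiation, 6 and 70 in RIPK3, 2 and 68 in J0_RIPK3 against J0_CTL, 4 and 60 in J7_RIPK3 against J7_CTL, 21 and 1 in the difference test and 5 and 1 in J7_MLKL against J7_CTL. The excess of chromosome 5, computed after seeing the data, stayed at 0.27 to 0.28 at J0 and 0.42 to 0.43 at J7 without single libraries.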
